A study of Mus musculus with 12 samples.

Results

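The 10 genes described here serve the uptake, storage and release of fat: Lpl, Angptl4, Cd36, Fabp4, Fabp5, Plin2, Hilpda, Pparg, Lipa and Pnpla2. They were chosen by name from the 53819 genes of each count table for their known roles. The choice was made with earlier results of these data known. Counts of the 10 genes set beside the share over all genes are therefore descriptions only. Messenger RNA was sequenced in 12 libraries of bone marrow monocytes from WT C57Bl6J mice. The cells fell into 4 groups of 3 libraries: untreated cells, cells held overnight with platelets (the platelet group), cells given lipopolysaccharide (LPS) without platelets, and cells that met platelets overnight, were washed and received LPS (the combined group). LPS is a bacterial outer membrane component that activates monocytes through Toll-like receptor 4. Every library carries the same genotype and strain, and no other agent is named. The sources used here do not give doses, the time with LPS, the age and sex of the mice, or whether the 3 replicates came from separate mice. Each p-value therefore reflects no more than the variation among the libraries at hand, part or all of which could be technical.

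Lipoprotein lipase (Lpl) splits the triglycerides of circulating lipoproteins outside the cell, and Angptl4 is a secreted protein that inactivates it. The fatty acids set free are taken up with the help of the surface receptor Cd36 and carried through the cytosol by the binding proteins Fabp4 and Fabp5. Surplus fatty acids are stored in lipid droplets, which Plin2 coats; Pnpla2 (adipose triglyceride lipase) starts the breakdown of the stored triglyceride, and Hilpda inhibits it. Lipa is the acid lipase of the lysosome, and Pparg (PPAR gamma) is a fatty acid-sensing nuclear receptor for which Cd36, Fabp4, Plin2, Angptl4 and Lpl are known target genes in macrophages or adipocytes.

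Between 20060867 and 32155727 counts per library were assigned to genes, and 3 counts corresponded to 0.0854 to 0.163 CPM, the unit of level used below (counts scaled to a common library total). Of 26048 genes with a count, 13151 had enough counts to be tested, all 10 lipid genes among them. Platelet replicate 1 is called a control in its description, while its title and treatment name platelets, and it was kept in the platelet group. It stood apart from the other platelet libraries: the chi-square per degree of freedom between their counts was 76.2 and 83.5, against 6.75 to 21.6 for the other pairs of replicates. Its share of mitochondrial counts was 0.886%, against 0.431% to 0.600% in the other 11 libraries. The 10 monocyte markers were all detected in every group and summed to between 33117 and 41992 CPM, most of it Lyz2. Of them, 1 rose and 1 fell with platelets, 5 rose and 2 fell with LPS, 3 rose and 2 fell with platelets among LPS-treated cells, and 6 rose and 3 fell with LPS after platelets; with LPS, Cd14 went from a mean of 208 to 2214 CPM and Ccr2 from 214 to 58.8 CPM. Of 8 adipocyte markers only Lipe was tested, and Lep, Cidea and Cfd were at 0 in all 12 libraries. Lipe rose with LPS and with LPS after platelets and passed in neither platelet comparison. The summed 8 markers were at 5.71 to 7.54 CPM in untreated cells and 4.50 to 5.29 CPM after platelets. With LPS they were at 17.9 to 19.9 CPM, and with both at 16.1 to 20.6 CPM. Of 9 endothelial and stromal markers, Gpihbp1, which anchors lipoprotein lipase to capillary cells, and Tek were at 0 in all 12 libraries; 4 were tested, 2 rose with LPS and with LPS after platelets, and 1 rose with platelets among LPS-treated cells. Kdr, the 1 that did so, had means of 1.05 CPM in untreated cells, 1.66 after platelets, 3.93 with LPS and 8.85 CPM with both, and the summed 9 markers were at 1.89 to 2.82, 2.78 to 3.39, 4.79 to 7.19 and 9.94 to 11.1 CPM in the same order.

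Several markers of platelets were higher in cells that had met them. Gng11, a platelet marker, was at 148, 77.1 and 73.6 CPM in the platelet libraries and between 1.65 and 2.07 CPM in the untreated ones, and at 58.2 to 71.6 CPM in the combined group against 1.53 to 2.43 CPM with LPS alone. Of 15 platelet and megakaryocyte markers, 12 were tested; 6 rose and 1 fell with platelets, and 7 rose and 1 fell with platelets among LPS-treated cells. With LPS 1 of the 12 rose and 1 fell, and with LPS after platelets 0 rose and 5 fell. The 15 markers summed to 3415 to 6136 CPM with platelets and 3790 to 4498 CPM without, or 3643 to 3923 CPM in the combined group and 3904 to 4717 CPM with LPS alone. Pf4 and Ppbp, which make up most of it, were also high in untreated cells. Gp1bb, Gp5 and Gp6 were at 0 in every untreated library, and Gp5 was at 0 in every platelet library. The summed erythroid markers were 11.9 to 24.5 CPM with platelets and 1.12 to 1.61 CPM without, and 3 of the 4 tested rose. Among LPS-treated cells their sum was 7.08 to 9.35 CPM with platelets and 0.036 to 0.650 CPM without, and all 4 tested rose. LPS lowered 3 of the 4 without platelets and 3 after them. Of 8 neutrophil markers, 6 were tested and 1 fell with platelets, with and without LPS; their sum was 195 to 219 CPM against 359 to 383 CPM in untreated cells, and 156 to 174 CPM in the combined group against 230 to 289 CPM with LPS alone. In each LPS comparison 1 neutrophil marker rose and 1 fell.

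Beside the marker counts here and above, 6.49% of all tested genes changed with platelets and 50.7% with LPS (edgeR adjusted p under 0.05). The shares were 7.28% for platelets among LPS-treated cells and 49.4% for LPS after platelets. Some markers of basophils and mast cells were higher with platelets. Of 8 such markers 6 were tested, and 4 rose with platelets, for a sum of 7.92 to 9.82 CPM against 1.47 to 2.56 CPM in untreated cells. Mcpt8, a defining basophil gene, was at 2.50, 2.31 and 2.82 CPM with platelets against 0.14 to 0.49 CPM in untreated cells, and Prss34 at 2.89, 3.69 and 4.41 CPM against 0.49 to 1.26 CPM. Among LPS-treated cells both rose again with platelets, Mcpt8 to 1.53, 3.34 and 0.43 CPM from 0.22 CPM or less, and Prss34 to a mean of 4.15 from 0.32 CPM. With LPS 3 of the 6 rose and 1 fell, and with LPS after platelets 2 rose; the sum was 105 to 109 CPM with LPS and 83.9 to 95.3 CPM with both, nearly all of it from Hdc. Of 7 dendritic cell markers 6 were tested, and 2 rose with platelets (6.38 to 8.65 CPM against 2.28 to 4.63 CPM), while 3 rose and 1 fell with LPS (43.7 to 51.7 CPM) and 2 rose and 1 fell with LPS after platelets, mostly Ccr7 by level. Of 9 lymphocyte markers only Cd79b was tested, and it fell with LPS after platelets and passed in none of the other 3 comparisons. These values move with the platelet and LPS results below; their part in those results was not tested.

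**Figure D1:**
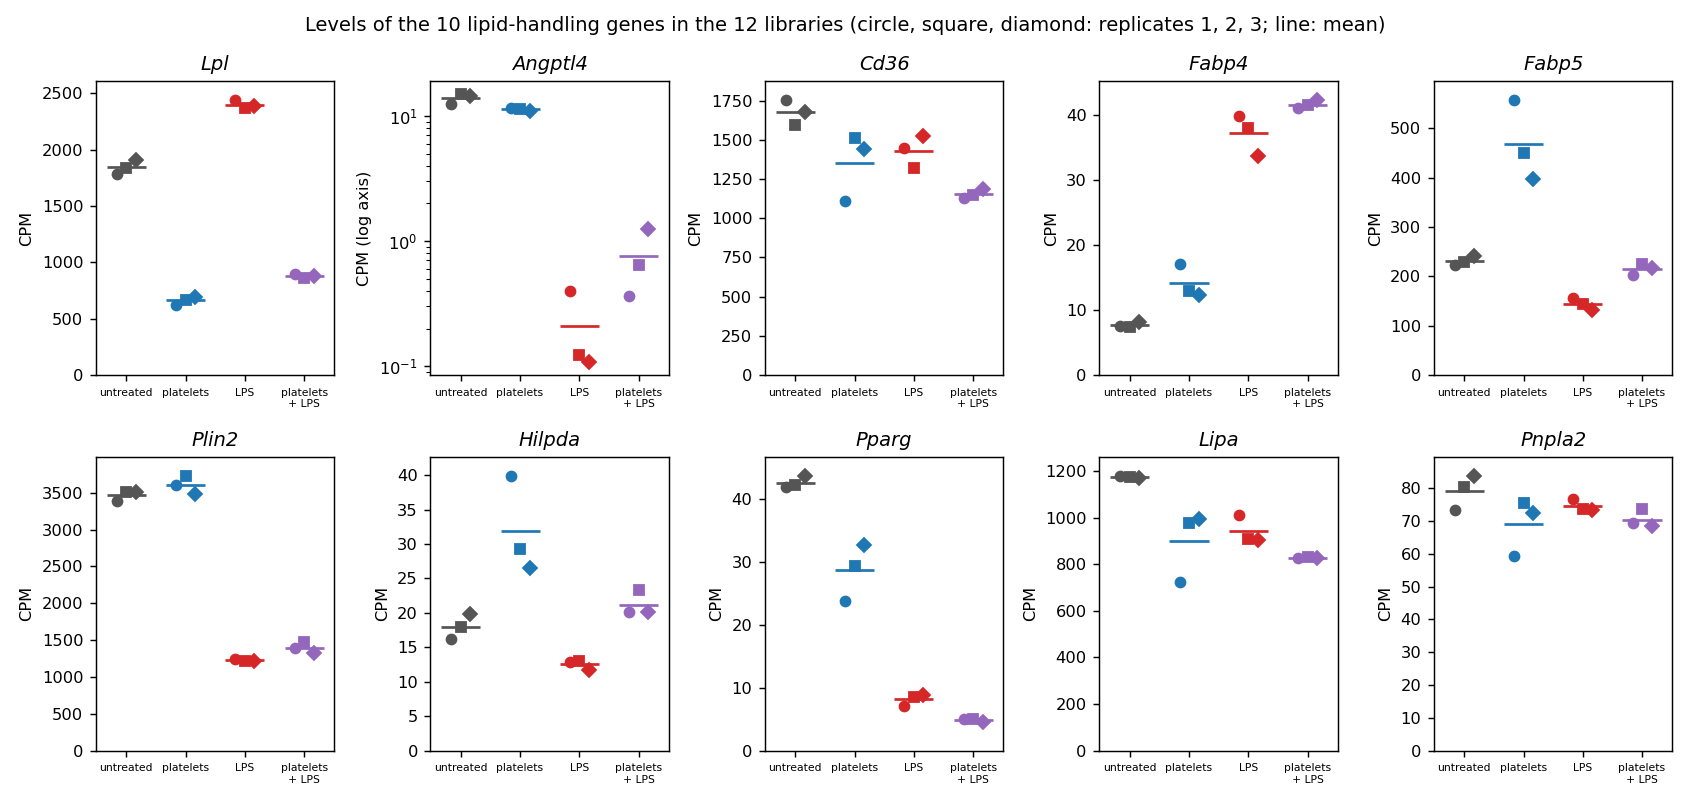
Each panel plots the level of a lipid gene in CPM for the 12 libraries, by group; circles, squares and diamonds are replicates 1, 2 and 3, lines are group means, and the Angptl4 axis is logarithmic. Lpl was low in both groups that met platelets (624, 663 and 694 CPM, and 896, 858 and 881 CPM with LPS), while Plin2, Pparg and Angptl4 were low in both groups given LPS.

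Overnight contact with platelets raised 3 of the 10 genes (Fabp4, Fabp5 and Hilpda) and lowered 3 (Lpl, Pparg and Lipa), while 4 did not pass the test (edgeR's quasi-likelihood test, Benjamini-Hochberg adjusted p under 0.05). Over all tested genes, 6.49% passed in this comparison (3.63% higher and 2.86% lower). LPS without platelets raised 2 (Lpl and Fabp4) and lowered 6 (Angptl4, Fabp5, Plin2, Hilpda, Pparg and Lipa), in a comparison in which 50.7% of all tested genes passed (27.7% higher and 23.0% lower). Among LPS-treated cells, earlier platelet contact raised 3 (Angptl4, Fabp5 and Hilpda) and lowered 2 (Lpl and Pparg), against 7.28% of all tested genes (4.41% higher and 2.87% lower). In cells that had met platelets, LPS raised 2 (Lpl and Fabp4) and lowered 5 (Angptl4, Fabp5, Plin2, Hilpda and Pparg), against 49.4% (27.6% higher and 21.8% lower).

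The median log2 fold change of the 10 genes was -0.25 for platelets, -0.42 for LPS, 0.039 for platelets among LPS-treated cells and -0.41 for LPS after platelets. The medians over all tested genes were 0, 0.0081, 0.013 and 0.021 in the same order. The libraries of both groups did not overlap for 8, 9, 8 and 7 of the 10 genes, against 25.1%, 60.5%, 27.0% and 54.8% of all tested genes. The platelet and LPS comparisons share the untreated libraries, and each group of libraries enters several comparisons. The difference between the platelet effects with and without LPS (the interaction) passed for 0 of the 10 genes, against 1.58% of all tested genes (0.859% positive and 0.722% negative); 3 (Angptl4, Fabp4 and Fabp5) were at an unadjusted p under 0.05, DESeq2 called 2 (Fabp4 and Angptl4), and limma-voom called 0.

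**Figure D2:**
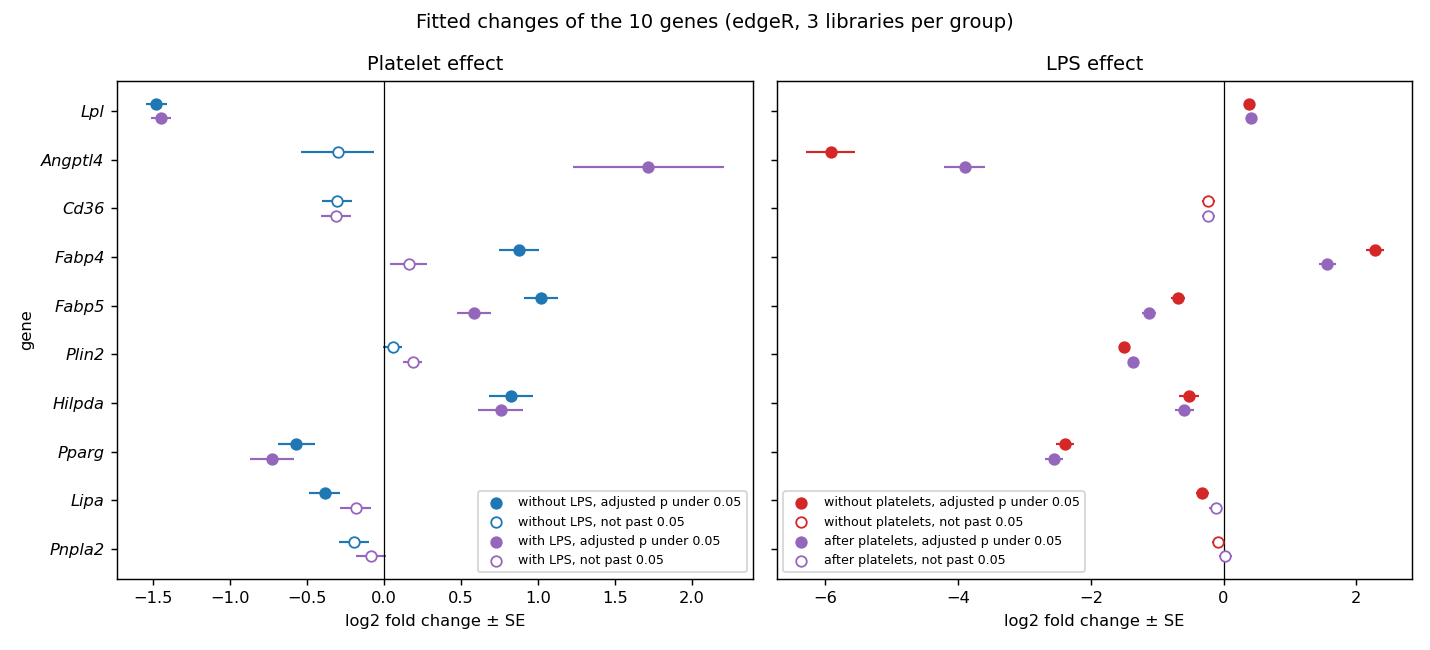
Log2 fold changes of the 10 genes with standard errors (bars), for platelets on the left and LPS on the right; filled points have an edgeR adjusted p under 0.05 and open points do not. The Lpl points for platelets lie at -1.48 without LPS and -1.45 with it, and the Angptl4 points for LPS at -5.92 and -3.90.

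Lpl, the secreted triglyceride lipase, was among the most counted of the 10 genes and gave the largest platelet response of them without LPS. Its level was 1786, 1834 and 1907 CPM in untreated cells and 624, 663 and 694 CPM after platelets, so the lowest untreated library was far above the highest platelet library. The fall was 2.79-fold (log2 fold change -1.48, SE 0.066, edgeR adjusted p = 3.47e-09; mean 1843 ± 60.8 CPM against 661 ± 35.0 CPM, SD, n = 3). In bulk RNA, fewer cells making a transcript and less of it per cell cannot be told apart. With LPS alone Lpl was at 2438, 2370.3 and 2384 CPM, and with platelets before LPS at 896, 858 and 881 CPM. Platelets thus lowered it 2.73-fold among LPS-treated cells too (log2 fold change -1.45, SE 0.066, edgeR adjusted p = 9.37e-09). The platelet effects with and without LPS differed by 0.031 on the log2 scale (SE 0.091, edgeR adjusted p = 0.964). Without platelet replicate 1 the platelet effect was -1.42 (edgeR adjusted p = 3.88e-11).

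LPS moved Lpl the other way and less far, by 1.30-fold upward without platelets (log2 fold change 0.38, SE 0.065, edgeR adjusted p = 0.000133) and 1.33-fold upward after them (log2 fold change 0.41, SE 0.065, edgeR adjusted p = 6.43e-05). No library of the compared groups overlapped. This rise depends on scaling: with library size alone, which shifts the median gene by -0.38 and -0.36 in the 2 LPS comparisons, Lpl's log2 fold change was 0.00044 without platelets (edgeR adjusted p = 0.997) and 0.050 after them (edgeR adjusted p = 0.549). Upper-quartile scaling shifted the median by -0.20 and -0.24 and left the rises at 0.18 and 0.17.

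Angptl4, the inhibitor of lipoprotein lipase, lost nearly all of its signal under LPS. It was at 12.5, 14.8 and 14.3 CPM in untreated cells and 0.398, 0.122 and 0.109 CPM with LPS, which are 11, 3 and 2 counts in the LPS libraries. After platelets it was at 11.6, 11.3 and 10.9 CPM, and with platelets before LPS at 0.364, 0.642 and 1.25 CPM, from 10, 15 and 32 counts. The summed counts gave a ratio of untreated to LPS of 61.3 (95% exact interval 37.6 to 107.5, from 1200 and 16 counts) and a ratio of platelets to platelets with LPS of 15.1 (11.5 to 20.01, from 1073 and 57 counts). These intervals cover counting error only, since the reads carry no molecular identifiers. Both falls passed (log2 fold change -5.92, SE 0.37, edgeR adjusted p = 1.46e-09 without platelets; log2 fold change -3.90, SE 0.31, edgeR adjusted p = 2.68e-08 after platelets), and at such counts the fitted size depends on the small count edgeR adds. Platelets alone gave -0.30 (SE 0.24, edgeR adjusted p = 0.517).

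Among LPS-treated cells, Angptl4 was higher with earlier platelet contact by a count ratio of 3.29 (95% exact interval 1.86 to 6.14, from 57 and 16 counts). The lowest library with platelets (0.364 CPM) lay below the highest without (0.398 CPM), so the groups overlapped. The test was near its threshold (log2 fold change 1.72, SE 0.49, edgeR adjusted p = 0.0459). Under 20 alternative settings the adjusted p ranged from 0.00125 to 0.227, and 11 of them did not pass, among them limma-voom (adjusted p = 0.132) and the fits without untreated replicate 1, 2 or 3, platelet replicate 2 or 3, LPS replicate 2 or 3, or platelet with LPS replicate 2 or 3. Its log2 value was 1.12 without platelet with LPS replicate 3 and 2.64 without LPS replicate 1. The interaction for Angptl4 was 2.02 (SE 0.55, edgeR adjusted p = 0.098).

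Lpl counts can be set against Angptl4 counts within each library, which removes scaling between libraries. The size of this log2 ratio also carries the lengths of both transcripts, so only its change between groups is described. It was 7.05 ± 0.10 in untreated cells, 5.87 ± 0.12 after platelets, 13.55 ± 0.89 with LPS and 10.32 ± 0.88 with both (mean ± SD, n = 3; 0.5 added to each count). The 4 groups did not overlap in this ratio, with platelets alone lowest and LPS alone highest. The log2 ratio of Fabp5 to Fabp4 was 4.91 ± 0.047 and 5.06 ± 0.061 in the groups without LPS and 1.95 ± 0.034 and 2.37 ± 0.073 in those with it. Plin2 to Pnpla2 gave 5.46 ± 0.070 and 5.71 ± 0.18 without LPS, and 4.04 ± 0.018 and 4.31 ± 0.023 with it.

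**Figure D3:**
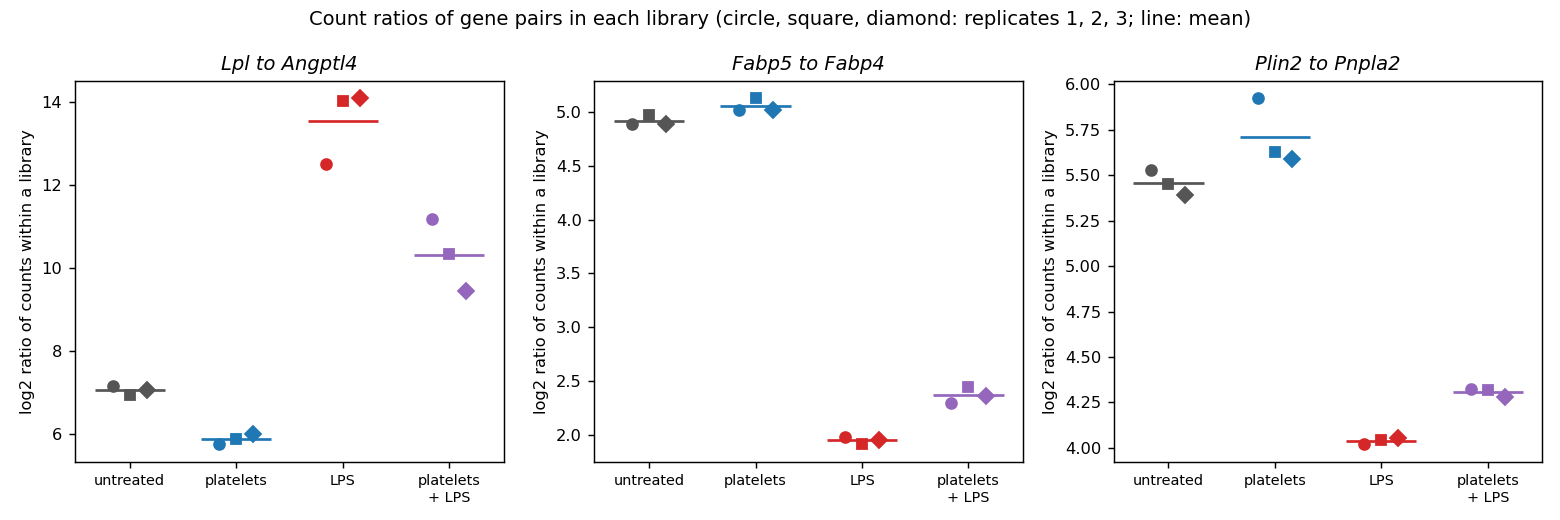
Log2 ratios of counts of 3 gene pairs within each of the 12 libraries, by group, with replicates 1, 2 and 3 as circle, square and diamond and the mean as a line; the vertical axes do not start at 0. The ratios of Fabp5 to Fabp4 and of Plin2 to Pnpla2 lie lower in all 6 LPS libraries than in all 6 others, while that of Lpl to Angptl4 lies higher.

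Among the uptake genes, the 2 cytosolic fatty acid carriers both rose with platelets. Fabp5 was at 222, 229.9 and 241 CPM in untreated cells and 557, 451 and 398 CPM after platelets, with no overlap. That was a 2.03-fold rise (log2 fold change 1.02, SE 0.11, edgeR adjusted p = 2.75e-05). With LPS it was at 157, 143 and 131 CPM, and with platelets before LPS at 202, 226 and 217 CPM. Among LPS-treated cells platelets therefore raised it 1.498-fold (log2 fold change 0.58, SE 0.11, edgeR adjusted p = 0.00416). LPS lowered Fabp5 1.61-fold without platelets (log2 fold change -0.69, SE 0.11, edgeR adjusted p = 8.23e-05) and 2.18-fold after them (log2 fold change -1.12, SE 0.11, edgeR adjusted p = 4.10e-07). The processed pseudogene Fabp5l2 had 0 counts in these tables against 90820 for Fabp5 in all; how the counting treated reads that match several copies is unknown.

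Fabp4, the carrier best known from adipocytes and macrophages, was scarce and rose in both treatments. It was at 7.50, 7.33 and 8.13 CPM in untreated cells, 17.1, 12.9 and 12.2 CPM after platelets, 39.9, 38.0 and 33.7 CPM with LPS and 41.1, 41.5 and 42.3 CPM with both. The 4 groups did not overlap and stood in that order. Platelets raised it 1.84-fold (log2 fold change 0.88, SE 0.13, edgeR adjusted p = 0.000573) and LPS raised it 4.86-fold (log2 fold change 2.28, SE 0.13, edgeR adjusted p = 4.39e-10). LPS after platelets raised it 2.96-fold (log2 fold change 1.57, SE 0.12, edgeR adjusted p = 2.76e-08), while platelets among LPS-treated cells gave 0.16 (SE 0.12, edgeR adjusted p = 0.524). The difference between the platelet effects was -0.72 (SE 0.18, edgeR adjusted p = 0.0609). It passed in 6 of the alternative fits, among them DESeq2 (-0.74, adjusted p = 0.00218) and those without platelet replicate 1 (-0.59, edgeR adjusted p = 0.0261) and without platelet replicate 3 (-0.81, edgeR adjusted p = 0.0340).

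Cd36, the fatty acid and oxidised lipoprotein receptor, passed none of the tests in the fit of all 12 libraries with TMM scaling, but passed several under other settings. It was at 1753, 1595 and 1677 CPM in untreated cells, 1111, 1510.0 and 1442 CPM after platelets, 1450.0, 1319.8 and 1523 CPM with LPS and 1129, 1145 and 1186 CPM with both. Platelet replicate 1 gave the lowest of these 12 values. The platelet effect was -0.31 (SE 0.10, edgeR adjusted p = 0.082), and among LPS-treated cells -0.31 (SE 0.10, edgeR adjusted p = 0.0735). LPS gave -0.23 (edgeR adjusted p = 0.0672) and, after platelets, -0.23 (edgeR adjusted p = 0.0641). Without platelet replicate 1, 3 of the 4 passed: -0.33 for platelets among LPS-treated cells, -0.25 for LPS and -0.41 for LPS after platelets (edgeR adjusted p = 0.00134, 0.00185 and 4.73e-05), while the platelet effect was -0.16 (edgeR adjusted p = 0.193). With all libraries and no filter on low counts all 4 passed (edgeR adjusted p = 0.0321 to 0.0453). With upper-quartile scaling and with library size alone, the LPS falls were -0.43 and -0.61 without platelets and -0.47 and -0.60 after them, and passed; these scalings shift the median gene by -0.20 to -0.38. LPS after platelets also passed with DESeq2 (-0.28, adjusted p = 0.0330) and with its size factors in edgeR, and the fits of only the groups compared called LPS (adjusted p = 0.00978) and platelets among LPS-treated cells (adjusted p = 0.00525).

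Plin2, the droplet coat protein, fell with LPS in both comparisons. It was at 3389, 3513 and 3512 CPM in untreated cells and 1246, 1217 and 1219 CPM with LPS, and at 3608, 3729.6 and 3485 CPM after platelets and 1389, 1471 and 1332 CPM with both. LPS lowered it 2.83-fold (log2 fold change -1.5002, SE 0.063, edgeR adjusted p = 8.91e-12) and, after platelets, 2.58-fold (log2 fold change -1.37, SE 0.063, edgeR adjusted p = 2.92e-11). Replicates lay close together: the SD was 71.1 CPM in untreated and 16.2 CPM in LPS libraries. The platelet effect was 0.055 (SE 0.062, edgeR adjusted p = 0.666) without LPS and 0.19 (SE 0.062, edgeR adjusted p = 0.0862) with it. The latter passed without platelet replicate 1 (0.17, edgeR adjusted p = 0.0278), with DESeq2 (adjusted p = 0.0317) and in the fit of only the groups compared (edgeR adjusted p = 0.0479).

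Hilpda, a small hypoxia-inducible droplet protein that inhibits Pnpla2, rose with platelets and fell with LPS in both pairs of comparisons. Its levels were 16.2, 17.9 and 19.9 CPM in untreated cells and 39.9, 29.3 and 26.5 CPM after platelets, with platelet replicate 1 highest. With LPS it was at 12.9, 12.999 and 11.7 CPM, and with both at 20.2, 23.3 and 20.2 CPM. Platelets raised it 1.77-fold (log2 fold change 0.82, SE 0.14, edgeR adjusted p = 0.00229), and 1.69-fold among LPS-treated cells (log2 fold change 0.76, SE 0.15, edgeR adjusted p = 0.00479). LPS lowered it 1.43-fold (log2 fold change -0.52, SE 0.15, edgeR adjusted p = 0.00789) and, after platelets, 1.503-fold (log2 fold change -0.59, SE 0.14, edgeR adjusted p = 0.00272). Without platelet replicate 1 the platelet rise was 0.66 (edgeR adjusted p = 0.00151).

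Of the 2 intracellular lipases, Lipa passed 2 of the tests with TMM scaling and Pnpla2 did not pass. Pnpla2, which starts droplet lipolysis, lay between 59.4 and 83.8 CPM in all 12 libraries with log2 values of -0.20 for platelets, -0.084 for LPS, -0.084 for platelets among LPS-treated cells and 0.028 for LPS after platelets (SE 0.095 to 0.096). The LPS effect after platelets was negative with the other scalings tried, and Pnpla2 passed for LPS with upper-quartile scaling at -0.29 (edgeR adjusted p = 0.0155) and with library size alone at -0.46 (edgeR adjusted p = 0.00118), where the median gene was shifted by -0.20 and -0.38. With library size alone it also passed for LPS after platelets at -0.34 (edgeR adjusted p = 0.0107; median shift -0.36). Lipa, the lysosomal acid lipase, was at 1178, 1176 and 1168 CPM in untreated cells and 725, 978 and 992 CPM after platelets. It was at 1013, 906 and 903 CPM with LPS and 825, 831 and 828 CPM with both. The untreated libraries were the highest 3 of the 12.

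Lipa fell 1.31-fold with platelets (log2 fold change -0.39, SE 0.10, edgeR adjusted p = 0.0311) and 1.25-fold with LPS (log2 fold change -0.32, SE 0.10, edgeR adjusted p = 0.0141). Platelets among LPS-treated cells gave -0.18 (edgeR adjusted p = 0.345) and LPS after platelets gave -0.12 (edgeR adjusted p = 0.355); without platelet replicate 1 these were -0.20 and -0.31 and passed (edgeR adjusted p = 0.0145 and 0.000176). With upper-quartile scaling and library size alone, LPS after platelets gave -0.36 (edgeR adjusted p = 0.00421) and -0.48 (edgeR adjusted p = 0.0014), and LPS without platelets -0.52 and -0.70. The fit of only the 2 LPS groups called the platelet effect (-0.19, edgeR adjusted p = 0.0495). The platelet fall was -0.23 without that library (edgeR adjusted p = 0.0186). It did not pass in 7 of 21 alternative settings, up to an adjusted p of 0.146, among them a fit of only the groups compared, and the fits without untreated replicate 1, 2 or 3 or platelet with LPS replicate 1 or 2. The LPS fall did not pass without LPS replicate 2 (edgeR adjusted p = 0.0565) or 3 (edgeR adjusted p = 0.0532).

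Pparg, the nuclear receptor, fell in every one of the 4 treatment comparisons. It was at 41.9, 42.2 and 43.7 CPM in untreated cells, 23.9, 29.4 and 32.8 CPM after platelets, 7.10, 8.57 and 8.77 CPM with LPS and 5.09, 5.05 and 4.54 CPM with both, and no group overlapped another. Platelets lowered it 1.48-fold (log2 fold change -0.57, SE 0.12, edgeR adjusted p = 0.00924), and 1.66-fold among LPS-treated cells (log2 fold change -0.73, SE 0.14, edgeR adjusted p = 0.00453). LPS lowered it 5.25-fold (log2 fold change -2.39, SE 0.13, edgeR adjusted p = 2.62e-10) and, after platelets, 5.86-fold (log2 fold change -2.55, SE 0.14, edgeR adjusted p = 1.86e-10). Of the genes named above as known PPAR gamma targets, Lpl fell with platelets, as Pparg did, Fabp4 rose, and Cd36, Plin2 and Angptl4 did not pass. With LPS, Plin2 and Angptl4 fell, as Pparg did, Fabp4 rose and Cd36 did not pass. Lpl rose with TMM scaling and was at 0.00044 with library size alone. Among LPS-treated cells, Lpl fell with platelets, as Pparg did. There Angptl4 rose near the threshold, and Cd36, Fabp4 and Plin2 did not pass. With LPS after platelets, Plin2 and Angptl4 fell, Fabp4 rose and Cd36 did not pass. In that comparison Lpl rose with TMM scaling and was at 0.050 with library size alone.

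The windows before the start sites of Pparg, Plin2 and Hilpda are shown because these genes passed for LPS and these windows hold a match to a receptor or hypoxia motif. Each is the 250 bases before an annotated start (RefSeq, GRCm38.p6), written 5′ to 3′ on the gene's strand, with the first motif match in capitals. The table holds 3 windows for Pparg and 2 for Hilpda, and 1 of each is shown. Of those not shown, another Pparg window holds AGGTCA 9 bases before its start, and the remaining Pparg and Hilpda windows, like those of Lipa, which also passed for LPS, and Pnpla2, hold neither AGGTCA nor ACGTG; Cd36 holds AGGTCA 228 bases before its start.
Pparg, chr6:115360894-115361143, plus strand: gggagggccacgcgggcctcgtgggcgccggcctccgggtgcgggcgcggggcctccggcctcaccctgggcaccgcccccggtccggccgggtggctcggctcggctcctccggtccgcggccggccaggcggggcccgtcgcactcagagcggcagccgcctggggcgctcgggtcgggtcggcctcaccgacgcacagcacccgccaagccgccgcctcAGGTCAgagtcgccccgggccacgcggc
Plin2, chr4:86670060-86670309, minus strand: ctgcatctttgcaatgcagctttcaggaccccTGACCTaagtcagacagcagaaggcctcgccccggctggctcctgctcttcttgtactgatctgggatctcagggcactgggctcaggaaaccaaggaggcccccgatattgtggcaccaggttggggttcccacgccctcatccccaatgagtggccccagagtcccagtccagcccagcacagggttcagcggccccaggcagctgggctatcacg
Hilpda, chr6:29272376-29272625, plus strand: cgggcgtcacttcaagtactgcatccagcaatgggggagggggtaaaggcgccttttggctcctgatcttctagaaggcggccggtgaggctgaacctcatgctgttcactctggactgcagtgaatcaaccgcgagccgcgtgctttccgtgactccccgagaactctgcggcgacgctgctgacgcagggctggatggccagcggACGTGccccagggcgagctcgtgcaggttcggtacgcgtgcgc
In Pparg and Plin2 the capitals mark the nuclear receptor half-site AGGTCA or its reverse complement, 28 and 218 bases before the start. In Hilpda they mark ACGTG, a form of the core of hypoxia response elements, 43 bases before the start. Only this form of the core was searched, so other forms are not marked in any window. Both strands were searched; ACGTG is also contained in the E-box CACGTG. Over 32851 such windows of RefSeq genes, AGGTCA was in 14% and ACGTG in 16.6%, so neither is rare. The direct repeat of AGGTCA with 1 base between its copies, to which PPAR and RXR pairs bind, was in 0.0335% of all windows and in none of the 9 windows of the 6 lipid genes with an entry (Cd36, Hilpda, Lipa, Plin2, Pnpla2 and Pparg). A match describes the letters and is not a measured binding site.

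Levels of different genes can be compared per length. Divided by the length of the longest principal transcript in GENCODE M21, Plin2 stood first in untreated cells at 1839 CPM per kb, followed by Cd36 at 493, Lpl at 448, Lipa at 395, Fabp5 at 234, Pnpla2 at 44.0, Pparg at 24.1, Hilpda at 18.3, Fabp4 at 8.54 and Angptl4 at 4.20 CPM per kb. No neighbours in that order overlapped in the untreated libraries. After platelets Plin2 stayed first (1911 CPM per kb), Fabp5 came next (475) and Lpl stood after Cd36 and Lipa (161). There Fabp5 and Cd36, Cd36 and Lipa, Pnpla2 and Hilpda, and Pparg and Fabp4 overlapped. With LPS the order began with Plin2 (650.0), Lpl (583) and Cd36 (421 CPM per kb), and Fabp4 and Pnpla2 overlapped. With platelets before LPS it began with Plin2 (740.1), Cd36 (339) and Lipa (279 CPM per kb), and Fabp5 and Lpl overlapped.

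This length was adopted after values per joined exon length had been seen, because the joined exons of Lpl and Fabp4 far exceed their messenger RNAs. With joined exons, 4, 7, 6 and 5 of the 10 ranks differ in untreated, platelet, LPS and combined groups. In particular Cd36 then leads in LPS cells with Plin2 next, and Fabp4, not Angptl4, is last in the groups without LPS.

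The genes differed in how much they varied over the 12 libraries: the SD of log2 CPM ran from 0.12 for Pnpla2 and 0.23 for Lipa and Cd36 to 1.33 for Pparg and 2.64 for Angptl4. Between pairs of the 10 genes, patterns were compared by the root-mean-square difference of centred log2 CPM over the 12 libraries. The nearest pair was Cd36 and Lipa at 0.084, then Lipa and Pnpla2 at 0.14, Cd36 and Pnpla2 at 0.16, and Fabp5 and Hilpda at 0.21. The differences were not scaled to each gene's variation, so genes that vary little lie near each other and genes that vary much lie farther off. The distances of Pnpla2 to Lipa and to Cd36 exceed its own SD of 0.12, so they are no sign of a shared pattern. These points share libraries and scaling, and platelet replicate 1 was the highest or lowest of its group for 9 of the 10 genes, so the distances are descriptions only.

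Among 7710 other genes with a mean of at least 10 CPM, Fdft1 (0.17) and Hmgcs1 (0.17), which encode enzymes of cholesterol synthesis, were among the 3 nearest to Lpl. Cd36 and Lipa had Atf6 and Man2b1 in common among their nearest 3, Cd36 with Cog5 and Lipa with Farsb as the other. Fabp5 had Hacd4, Gngt2 and Syngr1, and Hilpda had Ap5s1, Gngt2 and Cks1b. Fabp4 was nearest to Ankrd37, Slamf9 and Bst2 (0.16 to 0.22), and Pparg to Xylt1, Syne3 and Otulinl (0.24 to 0.28). Plin2 was nearest to Mfsd11, Ttc7 and Bin1 (0.081 to 0.082), and Pnpla2 to Fam210b, Plekha3 and Vps53 (0.066 to 0.068). The nearest to Angptl4 were farther off, with Rab3il1 at 0.55, then Snx24 and E2f2.

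The wider pathway was read from 5 lists with 100 further genes, of which 71 were tested. With platelets, 4 rose and 2 fell, or 6 of 71, beside the 6.49% of all tested genes. With LPS, 23 rose and 20 fell, beside 50.7%. Platelets among LPS-treated cells raised 5 and lowered 3, beside 7.28%, and LPS after platelets raised 21 and lowered 23, beside 49.4%. The median log2 fold change of the 71 was -0.0071, -0.043, -2.8e-05 and -0.074 in these 4 comparisons. Without platelet replicate 1 the counts for platelets among LPS-treated cells rose from 1 to 2 in lipoprotein lipase handling. They rose from 5 to 8 in fatty acid uptake and from 0 to 1 in droplet and ester synthesis. Over all tested genes, 957 passed in this comparison with all libraries and 557 to 1640 with a library left out.

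In the list of genes that fold, cleave and sort lipoprotein lipase, 7 of 13 were tested. Lmf1, which helps lipoprotein lipase fold, rose with platelets from 22.5 to 29.4 CPM (log2 fold change 0.39, SE 0.10, edgeR adjusted p = 0.0317), and the other 6 did not pass in edgeR. Of the 7, 3 were at an unadjusted p under 0.05 in edgeR, DESeq2 called 3 and limma-voom called 2. Lmf1 did not pass in 9 of 21 alternative settings (adjusted p up to 0.165), among them the fits without untreated replicate 1, 2 or 3 or platelet replicate 2 or 3. With LPS, 2 rose and 1 fell: Sel1l, an adaptor of the same folding step (log2 fold change 0.45, SE 0.092, edgeR adjusted p = 0.000711), Furin, a protease that cleaves lipoprotein lipase and angiopoietin-like proteins (log2 fold change 0.29, SE 0.086, edgeR adjusted p = 0.0113), and, downward, the sorting receptor Sort1 (log2 fold change -0.50, SE 0.14, edgeR adjusted p = 0.00904). Furin also rose with platelets among LPS-treated cells, from 167, 182 and 174 to 300.01, 317 and 330.3 CPM (log2 fold change 0.86, SE 0.086, edgeR adjusted p = 1.08e-05). With library size alone the LPS values were 0.067 for Sel1l and -0.093 for Furin and passed for neither. Furin with LPS kept its direction and call in 18 of 21 alternative settings. Sort1 with LPS did not pass without untreated replicate 1 (edgeR adjusted p = 0.0516).

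Of 17 genes of fatty acid uptake, binding and activation, 12 were tested. Scarb1, a lipoprotein receptor, fell with platelets from 100.5 to 65.7 CPM (log2 fold change -0.61, SE 0.11, edgeR adjusted p = 0.00307) and, among LPS-treated cells, from 56.8 to 37.3 CPM (log2 fold change -0.61, SE 0.11, edgeR adjusted p = 0.0033). Fabp3, another fatty acid carrier, rose among LPS-treated cells from 10.5 to 17.7 CPM (log2 fold change 0.74, SE 0.18, edgeR adjusted p = 0.0236), a call lost without LPS replicate 1 or 3 or platelet with LPS replicate 2 (edgeR adjusted p up to 0.121). Among LPS-treated cells, platelets also raised Slc27a1 from 166 to 241 CPM (log2 fold change 0.54, edgeR adjusted p = 0.000456) and Fabp7 (0.61, edgeR adjusted p = 0.0415), and lowered Acsl3 (-0.99, edgeR adjusted p = 0.0488). Fabp3 rose with platelets alone as well, from 2.84 to 5.31 CPM (0.90, edgeR adjusted p = 0.0144); Fabp3 there, Fabp7 and Acsl3 were named after their values were seen. Fabp3 with platelets alone did not pass without untreated replicate 1 (edgeR adjusted p = 0.0672). Fabp7 did not pass without untreated replicate 1, 2 or 3, LPS replicate 2 or 3 or platelet with LPS replicate 1, 2 or 3 (edgeR adjusted p up to 0.187), and Acsl3 did not pass without any of these except LPS replicate 2, nor without platelet replicate 2 or 3 or LPS replicate 1 (edgeR adjusted p up to 0.231). Over 21 alternative settings, Fabp7 did not pass in 10 and Acsl3 in 16. For platelets among LPS-treated cells, edgeR called 5 of the 12, DESeq2 6 and limma-voom 3. With LPS, 5 rose and 4 fell. Cav1, which encodes the caveolar coat protein, went from 59.5 to 686 CPM (log2 fold change 3.53, SE 0.15, edgeR adjusted p = 8.91e-12) and Acsl1, which activates fatty acids with coenzyme A, from 38.5 to 161 CPM (log2 fold change 2.06, SE 0.13, edgeR adjusted p = 1.08e-09), while the transporter Slc27a1 went from 348 to 166 CPM (log2 fold change -1.07, SE 0.078, edgeR adjusted p = 9.52e-09).

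Of 24 genes of droplet coats and of triglyceride and sterol ester synthesis, 14 were tested. Bscl2 (seipin), which shapes droplets as they form, rose with platelets (log2 fold change 0.43, SE 0.11, edgeR adjusted p = 0.0249), a call lost in the fit of only the groups compared and without untreated replicate 1, 2 or 3 or platelet replicate 2 (edgeR adjusted p up to 0.0898). In edgeR 0 of 14 passed for platelets among LPS-treated cells (3 at an unadjusted p under 0.05 in edgeR, 0 called by DESeq2 and 0 by limma-voom). LPS raised 4 and lowered 5. Dgat2, which completes triglyceride synthesis, rose from 1.61, 1.82 and 1.87 to 27.2, 25.7 and 29.2 CPM (log2 fold change 3.95, SE 0.18, edgeR adjusted p = 2.62e-11) while Plin2 fell. Soat1, which esterifies cholesterol, fell from 319 to 130.05 CPM (log2 fold change -1.30, SE 0.10, edgeR adjusted p = 3.17e-08).

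Of 19 genes of lipolysis and its regulators, 15 were tested. Platelets changed 0 of them without LPS and 0 with LPS (edgeR; 3 and 3 at an unadjusted p under 0.05, 1 and 1 called by DESeq2, 0 and 0 by limma-voom). LPS raised 6 and lowered 6. Nceh1, a cholesteryl ester hydrolase, went from 485, 459 and 479.7 CPM in untreated cells to 60.3, 60.6 and 59.9 CPM with LPS (log2 fold change -2.98, SE 0.079, edgeR adjusted p = 3.33e-14). Npc1, which exports cholesterol from lysosomes, fell as well (log2 fold change -1.40, SE 0.11, edgeR adjusted p = 2.07e-08), and the phospholipase Ddhd1 rose (log2 fold change 2.01, SE 0.16, edgeR adjusted p = 2.85e-08). After platelets, LPS raised Lipe, the hormone-sensitive lipase, from 4.87 to 18.7 CPM (log2 fold change 1.94, SE 0.15, edgeR adjusted p = 1.41e-08). LPS without platelets raised Lipe as well.

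Of 27 genes of PPAR and RXR receptors, their cofactors and fatty acid oxidation targets, 23 were tested. Platelets raised Acadl, an enzyme of fatty acid oxidation, from 67.6 to 86.3 CPM (log2 fold change 0.35, SE 0.086, edgeR adjusted p = 0.0237). Acadl did not pass without untreated replicate 2 or 3 or platelet replicate 2 or in the fit of only the groups compared (edgeR adjusted p up to 0.108). Among LPS-treated cells platelets lowered the corepressor Ncor1 (log2 fold change -0.28, edgeR adjusted p = 0.0383) and raised Cebpb (log2 fold change 0.44, edgeR adjusted p = 0.0473). Neither passed without untreated replicate 1, 2 or 3, LPS replicate 1 or 3, or platelet with LPS replicate 1, 2 or 3, and Ncor1 did not pass without LPS replicate 2 either (edgeR adjusted p up to 0.138 for Ncor1 and 0.1997 for Cebpb). Over 21 alternative settings of every kind, Ncor1 did not pass in 11 (adjusted p up to 0.214) and Cebpb in 10. LPS raised 6 and lowered 4. Rxra, the partner with which PPAR gamma binds DNA, fell with LPS from 42.4, 38.9 and 32.9 to 10.6, 9.55 and 11.99 CPM (log2 fold change -1.83, SE 0.14, edgeR adjusted p = 1.48e-08), as Pparg did. Cebpb, which encodes a factor upstream of Pparg in fat cell formation, rose from 342 to 1225 CPM (log2 fold change 1.84, SE 0.13, edgeR adjusted p = 6.14e-09).

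**Figure D4:**
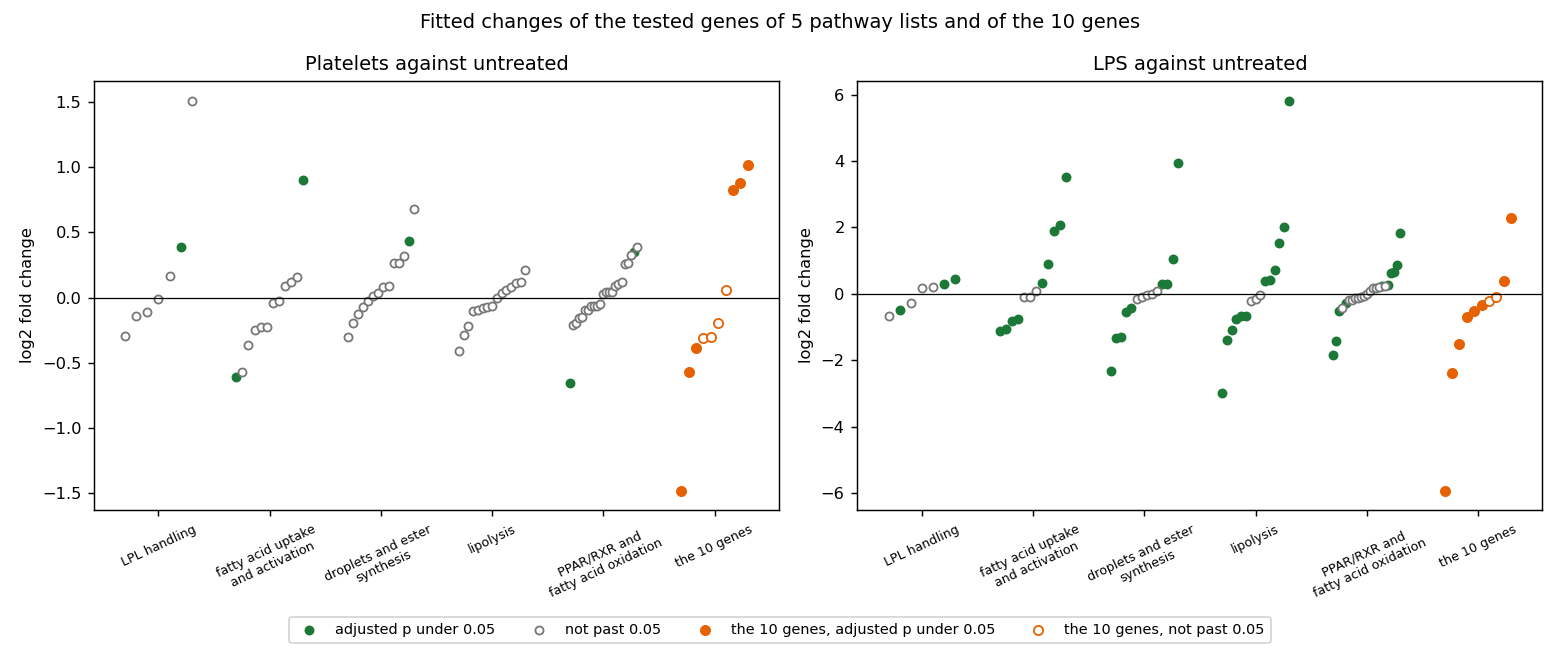
Log2 fold changes of the tested genes of the 5 pathway lists (green, filled where the edgeR adjusted p is under 0.05) and of the 10 genes (orange), for platelets on the left and LPS on the right, sorted within each list. With platelets 6 of 71 pathway genes are filled; Lpl at -1.48 is the lowest point of the left panel, and Angptl4 at -5.92 the lowest of the right.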

How the data were processed

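Per the labels' protocols, RNeasy Plus Micro RNA (1 ng) went through SMARTer Ultra Low Input v4 amplification and Nextera XT library preparation, without molecular identifiers. What the authors deposited are raw counts of reads for each gene. Salmon 1.5.2, STAR 2.7.9a, fastp 0.23.1, featureCounts and Subread 2.0.1 stand in the submitters' processing notes without roles. Genome build, annotation and strandedness of the counting were not given in the sources used here. By GENCODE M21, no exon of the 10 genes overlaps an exon of another gene.

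Genes kept by filterByExpr were fitted in edgeR 4.0.16 (R 4.3.3) with trimmed mean of M-values (TMM) scaling and the quasi-likelihood model, with all 12 libraries in 4 group means (8 residual degrees of freedom, common dispersion 0.0171). Tests were two-sided, with Benjamini-Hochberg adjustment over 13151 genes and a threshold of 0.05. CPM were computed from the TMM-scaled library totals of tested genes, and the SE comes from the F statistic. Alternatives were DESeq2 1.42.0 and limma 3.58.1 (voom), other scalings and filters, a replicate block, fits of only the compared groups and leaving out each library. The script was tested on simulated counts. The 10 genes, the pathway and marker lists and the contrasts were chosen with earlier results of these data known. Named genes are the 10, the 3 nearest in pattern to each, and per list and comparison up to 3 called genes with the smallest p whose higher group averaged 10 CPM or more; some of those, and some marker genes, are not reported here.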

Additional observations from a re-analysis of the deposited data

Results flagged for a closer look

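For Furin, which cleaves lipoprotein lipase, the platelet effect with LPS differed from that without LPS by the interaction test. None of the 10 lipid genes passed this test in edgeR with all 12 libraries, TMM scaling and filterByExpr. Some other edgeR settings called Fabp4 or Angptl4. Furin had a difference of 1.15 on the log2 scale (SE 0.12, edgeR adjusted p = 0.000125). It was at 147, 142 and 139 CPM in untreated cells and 103, 123 and 123 CPM after platelets, against 167, 182 and 174 CPM with LPS and 300.01, 317 and 330.3 CPM with both.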

How the results depend on the processing

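For the 10 genes, 6, 8, 5 and 7 passed in the platelet, LPS, platelet with LPS and LPS after platelets comparisons, and 0 for the interaction. Leaving out each library in turn gave 5 to 6, 7 to 9, 4 to 8 and 7 to 9, and 0 to 1 for the interaction; 8 was reached for platelets with LPS without platelet replicate 1. The interaction count was 1 with DESeq2 size factors and with library size alone, and 2 without a filter on low counts and with DESeq2's own test. Over all tested genes the platelet count of 854 was 1291 with DESeq2, 415 in the fit of only the groups compared and 410 to 1027 with a library left out. The count of 957 for platelets with LPS was 557 to 1640 with a library left out. The interaction count of 208 was 371 without a filter, 403 with DESeq2, 118 with the replicate block and 87 to 361 with a library left out. The cause of these shifts was not tested. For Angptl4, the fit of only the 2 LPS groups gave no value, since too few counts were left to pass the filter.

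Values that changed sign had not passed with all libraries, except Furin with LPS (-0.093) and Sel1l with LPS after platelets (-0.014), both with library size alone. Pnpla2 after LPS in platelet-exposed cells was -0.024 with DESeq2 size factors and with DESeq2, -0.21 with upper-quartile scaling, -0.34 with library size alone and -0.126 to 0.0945 with a library left out. For the interaction, Lpl was -0.0063 with upper-quartile scaling and -0.0447 to 0.0687 with a library left out. Cd36 was 0.0096 with library size alone, 0.011 without a filter, 0.00095 with the block, 0.0092 with limma-voom and between -0.165 and 0.0807 with a library left out. With a library left out, Hilpda was -0.184 to 0.0869 and Pnpla2 -0.0220 to 0.179. Of 18 correlations between the deviations of same-numbered replicates, 1 exceeded 0.1 (range -0.228 to 0.140). Differently numbered replicates were not compared, and the sources do not say what a number marks, so this does not settle whether replicates were paired. The replicate block removed Lipa from the platelet calls and Angptl4 from the platelet with LPS calls and changed no other call of the 10 genes. With 3 libraries per group and 16 Angptl4 counts in all under LPS, small changes of that gene are not measurable at this depth.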
